A study of Caenorhabditis elegans with 8 samples.

Results

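RNA recovered with tagged OMA-1 was set against the RNA of lysates depleted of ribosomal RNA, gene by gene and class by class, in Caenorhabditis elegans females. All 16031 genes of the authors' deposited table were compared. Genes with a baseMean, the table's mean read signal per gene over libraries, of at least 100 were ranked, which left 6768 genes, 42.2% of the table. The measure was the log2 ratio of the pooled OMA-1 immunoprecipitate (IP) FPKM to the pooled lysate FPKM, with 1 FPKM added to each. FPKM is the number of fragments scaled to transcript length and sequencing depth, so levels of different genes are given per length. The comparison drew on 2 OMA-1 IP libraries and 2 depleted lysate libraries of the 8 libraries in the series. The table gives only pooled values, so no value here has an SD and the read total of each library is unknown.

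The OMA-1 IPs came from young adults of genotype fog-1(q253ts); oma-1(zu405te33) with the transgene tnIs17, in which the oma-1 promoter drives OMA-1 fused to an S tag, a TEV site and GFP, and which also carries unc-119(+). One of the lysates had that genotype. The other came from animals with GFP, a TEV site and an S tag at the endogenous lin-41 locus, lin-41(tn1541), with fog-1(q253ts). The allele fog-1(q253ts), common to both genotypes, is temperature-sensitive. At the growth temperature of 25 °C its carriers make oocytes and lack sperm. Larvae were plated at 30000 per dish and pooled as whole animals after about 48 h on food. Complexes were recovered with a mixture of the anti-GFP antibodies 12A6 and 4C9. None of the samples is labelled as an IP from untagged animals. The IP libraries are labelled as having no RNA enrichment and the lysates as depleted with RiboZero, so the IP and the depletion cannot be told apart in these ratios. The lysates are whole animals, and fewer cells of a type and less RNA per cell cannot be told apart in them.

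OMA-1 and its paralog OMA-2 are CCCH zinc finger proteins of growing oocytes that bind RNA and keep maternal mRNAs from being translated until meiotic maturation. Oocytes store large amounts of such mRNA, and repressors, poly(A) polymerases and deadenylases decide when each is used. Immunoprecipitation of a repressor recovers its mRNAs together with whatever else is in the particle, and the lysate serves as the measure of what was available.

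Most genes on the oocyte and translational repressor lists lay high in the OMA-1 IPs, and most of those for cytosolic ribosomal proteins, histones, nuclear respiratory subunits and snRNAs lay low. The median ratio of the 6768 ranked genes was 0.44, the quartiles were -0.60 and 1.90, and the 5th and 95th percentiles were -1.75 and 4.09. In the authors' deposited table, at an adjusted p below 0.05, 4477 of 15742 tested genes were called higher with OMA-1, 28.4%, and of the ranked genes 3525 were, 52.1%. At least 2-fold higher were 2631 ranked genes, 38.9%, and at least 2-fold lower were 998, 14.7%. Over the whole table these shares were 21.6% and 11.6%. The deposited test looked only for enrichment: all 8208 tested genes with a deposited log2 ratio at or below 0 have an adjusted p of 1 in the authors' deposited table. Lower genes below therefore have values and no test. The upper tail was the longer: 369 ranked genes were at least 16-fold higher and 21 at least 16-fold lower. The baseMean includes the IP libraries, so a gene scarce in lysates is ranked more easily if the IP holds it. Just outside the limit lay Y75B8A.3 with a baseMean of 99.8 and a log2 ratio of 0.46, and just inside Y97E10C.1 with 100.1 and 2.16. Values over all members are given beside those of the ranked for several groups.

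The FPKM columns did not have equal totals, 394382 for the lysates and 1006220 for the OMA-1 IPs. Equal totals would scale every IP FPKM by a log2 factor of -1.35 before the offset is added. The median of the ranked genes would then be -0.83. The place of 0 thus rests on the authors' scaling. So do the 2-fold counts below and the genes said to rise. With equal totals, 1337 ranked genes were at least 2-fold higher and 3093 at least 2-fold lower. Group medians can also be read against the median of the ranked genes, 0.44, and some are given by percentile. All 42 lists with at least 5 ranked members kept their side of the ranked median with equal totals. Genes listed by name follow a rule on extremes and abundance in each group. The others named were picked after their values were seen.

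**Figure D1:**
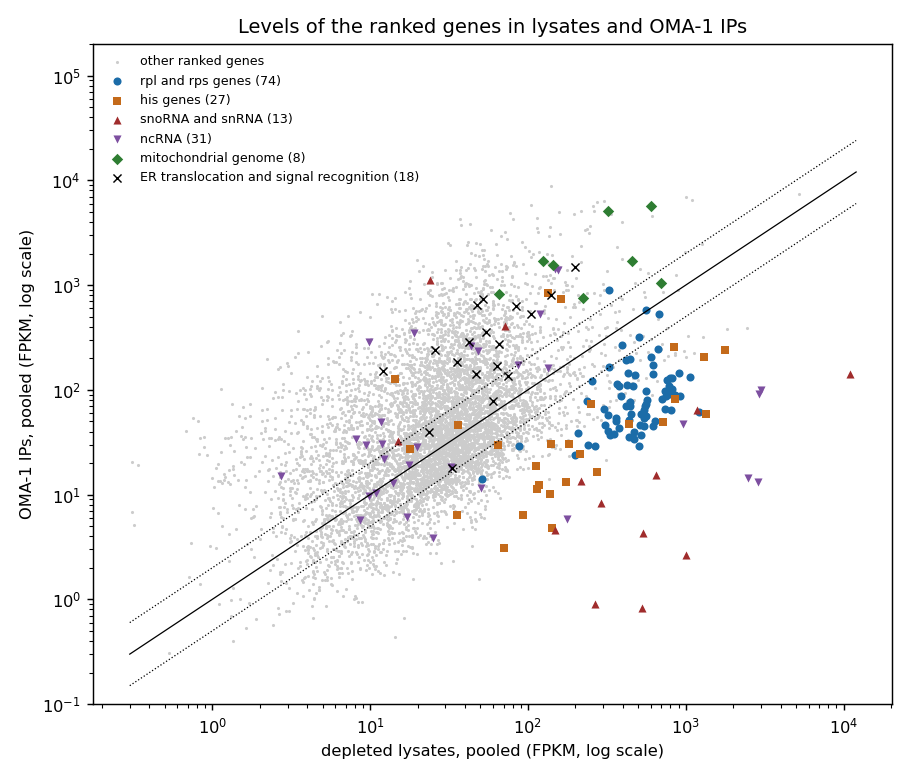
Each point is a ranked gene, with its pooled lysate FPKM on the x axis and its pooled OMA-1 IP FPKM on the y axis, both on log scales. The solid line marks equal values and the dotted lines a 2-fold difference. The rpl and rps, his, snoRNA and snRNA genes lie mostly below the lines, and the mitochondrial genome and ER translocation genes mostly above.

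The bait's own mRNA, oma-1, lay at 135 FPKM in lysate and at 1113 FPKM after the OMA-1 IP, a log2 ratio of 3.04. Because the transgene carries the oma-1 coding region, its reads and those of the mutant locus are counted together. The pooled lysates also include the lin-41(tn1541) genotype, which is listed without the transgene. Genotype and recovery in the IP therefore cannot be told apart in the oma-1 ratio. The paralog oma-2 went from 217 to 2339 FPKM (3.42). The mRNA of lin-41, which encodes the other tagged regulator, went from 98.8 to 348 FPKM (1.81). All of these genes are called higher in the authors' deposited table.

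The 10 highest ratios belonged to coding genes that are scarce or moderate in lysates and abundant in the IPs. Y52E8A.2 (chromosome II, 4320836 to 4321617, WBcel235) had the highest, with 37.3 FPKM in lysate and 4247 FPKM after the IP (6.80). Next was sygl-1, a target of Notch signalling that maintains germline stem cells (chromosome I, 12483809 to 12486235), with 37.6 and 3750 FPKM (6.60). The others were T07A5.5 (6.44), C14C11.7 (6.40), Y65B4BL.4 (6.38), the cuticle collagen gene dpy-10 (6.35), the inhibitor of growth family gene ing-3 (6.28), Y56A3A.36 (6.18), the Numb homolog num-1 (6.18) and C45H4.14 (6.08). All 10 are called higher in the authors' deposited table. The annotated transcript of T07A5.5 is 108 bases long. On the same strand, T14B4.19 covers 1217 bases of dpy-10, and reads of the pair may not be separable.

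By level, mom-2 led the OMA-1 IPs. This Wnt ligand gene of the early embryo had 140 FPKM in lysate and 8756 FPKM after the IP. Next among coding genes came clec-87, a C-type lectin gene (1006 to 6930 FPKM), and cpg-1, an eggshell chondroitin proteoglycan gene (1091 to 6532 FPKM). The translational repressor gene gld-1 went from 302 to 6303 FPKM and the linker histone gene hil-5 from 273 to 6236 FPKM. ZK686.1, the mitochondrial cytochrome b gene ctb-1, the Argonaute gene wago-1 and patr-1, a PAT1-type decay factor gene, each held between 5096 and 5768 FPKM. The 10 most abundant genes made up 8.84% of the summed lysate FPKM and 6.41% of the summed IP FPKM, so neither column rests on a few genes.

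Noncoding RNA held a smaller share of the summed FPKM in the OMA-1 IPs, though its genes were not lower as a set. The 89 ranked noncoding and pseudogene entries had a median of 0.52, with 39 at least 2-fold higher and 24 lower. Of them 52.8% are called higher in the authors' deposited table, beside 52.1% of all ranked genes. A few abundant RNAs weigh on the shares: ZK185.9 held 10999.3 of the 17924.4 snoRNA FPKM in lysates. Together, the noncoding and pseudogene biotypes held 10.5% of the summed FPKM in the lysates and 2.32% in the IPs, and coding genes 89.5% and 97.7%. The snoRNA share went from 4.54% to 0.215%, the ncRNA share from 3.70% to 0.694% and the snRNA share from 0.239% to 0.00128%. Shares of FPKM do not depend on the scaling between columns.

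Of the snoRNA genes, which guide modification of ribosomal RNA in the nucleolus, 12 were ranked and 130 were not. Among them 9 were at least 2-fold lower and 3 at least 2-fold higher, with a median of -4.84. Over all of them, the median was -1.26, and 77 were at least 2-fold lower and 11 at least 2-fold higher. ZK185.9 was the most abundant gene of all in the lysates, at 10999.3 FPKM, and lay at 143 FPKM in the IPs, a log2 ratio of -6.26. The lowest ratios were those of F46F11.12 (525 to 0.82 FPKM, -8.18) and F59C6.15 (1000 to 2.64 FPKM, -8.10). The 3 ranked snoRNAs that rose lie wholly within coding genes on the same strand. ZK858.10, at 5.48, lies in gld-4, a poly(A) polymerase gene whose own ratio was 2.98. F58D5.11, at 2.50, lies in F58D5.5, whose ratio was 2.42. K10D3.10, at 1.06, lies in hpo-11 (-0.95) and K10D3.4 (0.05). All 3 snoRNAs are called higher in the authors' deposited table, and reads of host and guest cannot be told apart here. Several low snoRNAs also lie within coding genes on the same strand: F46F11.12 in trpp-8 (-1.17), F17C11.15 in eef-1G (-0.96) and Y24D9A.9 in rpl-7A (-1.57).

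Of 11 snRNA genes, 9 were at least 2-fold lower and the median over all 11 was -4.43. Only sup-6 was ranked, with 538 FPKM in lysate and 4.33 FPKM after the IP (-6.66). Among 31 ranked ncRNA genes of 494, the median was 0.25 and the spread was wide, from -7.67 to 4.72. Over all 494 the median was 0.05, with 88 at least 2-fold higher and 42 lower. The lowest were rpr-1, the RNA of ribonuclease P, which went from 2880 to 13.1 FPKM, and mrpr-1, the RNA of ribonuclease MRP, which went from 2496 to 14.5 FPKM (log2 ratio -7.34). ZC155.8, R144.15, C38C6.8 and B0285.12, annotated transcripts of 299 bases each, lay between -4.996 and -4.33. Their sequences were not compared, so whether reads are shared between them is unknown. Higher ncRNAs included Y94H6A.17 (4.72), F58D5.13 (4.13) and F20C5.10 (3.26), and F58D5.13 and F20C5.10 lie within coding genes on the same strand with ratios of 2.42 and 2.62. These 3 are called higher in the authors' deposited table.

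The table holds 481 pseudogenes, and 41 were ranked, with a median of 1.03. Of these 25 are called higher in the authors' deposited table, where 52.1% of all ranked genes are. Over all 481 the median was -0.02, with 59 at least 2-fold higher and 8 lower. Only 73 of the 481 are called in the authors' deposited table, beside 28.4% of all tested genes. K07D4.1 (5.48), F45H11.8 (5.16) and fbxa-123 (5.08) led the ranked pseudogenes. In the newer Ensembl 115 annotation 10 of the 481 pseudogenes, F45H11.8 among them, and 23 of the 494 ncRNAs are listed as coding. The one ribosomal RNA pseudogene, WBGene00004677, held 5180 FPKM in depleted lysate and 7448 FPKM after the IP. All 3 ranked lincRNAs, linc-8 (3.65), linc-7 (1.59) and linc-22 (1.096), are called higher in the authors' deposited table. They are scarce in lysates, at 6.22, 3.16 and 0.97 FPKM. Over all 78 lincRNAs the median was 0.07, and 14 are called in the authors' deposited table, where 28.4% of all tested genes are. None of the 21 antisense, 15 pre_miRNA, 13 piRNA or 4 tRNA genes was ranked.

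**Figure D2:**
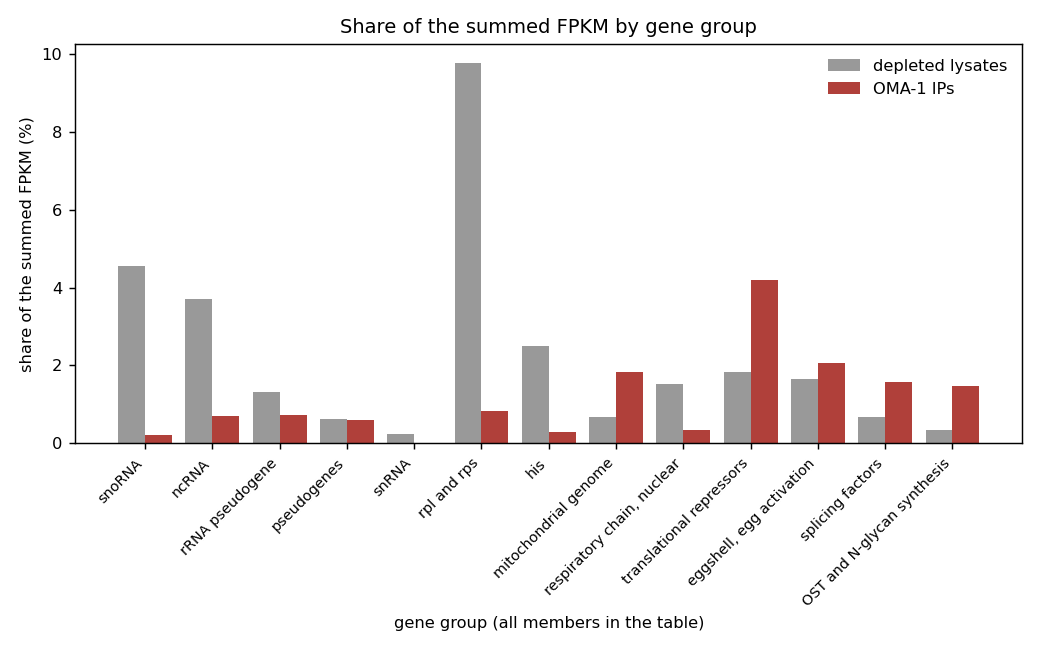
Bars give the share of the summed FPKM, in percent, that each gene group held in the depleted lysates (grey) and in the OMA-1 IPs (red), over all members in the table. The rpl and rps share went from 9.76% to 0.833% and that of the translational repressors from 1.84% to 4.19%.

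Core histone mRNAs, most of which end in a stem-loop in place of a poly(A) tail, were among the lowest coding genes. Of 27 ranked his genes, 22 were at least 2-fold lower and 3 at least 2-fold higher, and the median was -2.88. Over all 38 in the table, 25 were at least 2-fold lower and 5 at least 2-fold higher. The class held 2.51% of the lysate FPKM and 0.303% of the IP FPKM. The lowest, his-16, went from 143 to 4.79 FPKM, and the most abundant, his-60, from 1775 to 240 FPKM. The H3.3-type genes his-72 (163 to 738 FPKM, 2.17) and his-74 (134 to 842 FPKM, 2.64) rose instead, as did his-41 (14.5 to 128 FPKM, 3.06), in the authors' deposited table. The his genes occur in near-identical copies, and values of single copies are uncertain. The linker histone gene hil-5, as given above, rose as well.

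Genes of the cytosolic ribosome lay low nearly throughout. Of 74 ranked rpl and rps genes of 75 in the table, 68 were at least 2-fold lower, and the median of -2.82 was at the 1.28th percentile of the ranked genes. The most abundant, rps-8, was also the lowest of the small subunit, from 1204 to 61.3 FPKM (-4.27), and rpl-38 the lowest of the large subunit, from 507 to 28.9 FPKM (-4.09). The exception was rps-29, which went from 324 to 904 FPKM (1.48) and is the only one of the 74 that is called higher in the authors' deposited table. Genes of the mitochondrial ribosome, which translates the mitochondrial genome's mRNAs, did not share this: the 61 ranked of 66 had a median of 0.28, with 19 at least 2-fold higher and 5 lower. mrpl-36 was highest at 3.23 and mrps-5 lowest at -1.59.

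The other parts of the translation machinery were divided. Among 31 initiation factor genes, all ranked, the median was 0.10. Of these 13 are called higher in the authors' deposited table, 41.9% beside 52.1% of all ranked genes. The eIF3 subunit gene eif-3.C rose most, to 619 FPKM (2.74), while iff-2, an eIF5A gene, lay at -2.07 (73.6 to 16.8 FPKM). Of the cap-binding eIF4E genes, ife-1 (2.25), ife-5 (1.83) and ife-4 (1.65) are called higher in the authors' deposited table, and ife-2 (0.10) and ife-3 (-0.22) are not. Of 12 elongation and release factor genes, all ranked, 7 are called in the authors' deposited table, 58.3%. At least 2-fold higher were 3 of the 12, 3 were at least 2-fold lower, and the median was 0.55. In this list eef-1A.1, the most abundant coding gene of the lysates, went from 2458 to 388 FPKM (-2.66), while the mitochondrial tufm-2 went from 48.0 to 553 FPKM (3.50) and tufm-1 to 1.89. Of 33 ranked aminoacyl-tRNA synthetase genes, 19 are called higher in the authors' deposited table, 57.6%, from pars-1 (2.92) down. The other 14 are not, with rars-1 lowest at -1.57. The nucleolar and ribosome biogenesis genes kept close together, 34 ranked with quartiles of -0.57 and 0.19.

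Regulators of maternal mRNA were among the groups highest in the OMA-1 IPs. Of 48 genes for cytoplasmic polyadenylation and translational repression, 46 were ranked. Of these 39 are called higher in the authors' deposited table, 84.8% beside 52.1% of all ranked genes, 32 were at least 2-fold higher and none was at least 2-fold lower. The median was 1.63, at the 71.3th percentile. The RNA-recognition-motif gene rnp-1 was highest, from 41.5 to 2604 FPKM (5.94), followed by gld-1 (4.38) and car-1, an Sm-like P granule protein gene (335 to 4814 FPKM, 3.84). Several PUF repressor genes rose, puf-6 (3.67), puf-5 (3.31), puf-7 (2.79), puf-11 (2.65) and puf-3 (1.62) among them, some of which are alike in sequence. The Nanos genes nos-2 (3.70) and nos-1 (3.03) and the CPEB genes cpb-1 (3.08) and cpb-3 (2.58) also rose. These genes are all called higher in the authors' deposited table. The list's lowest member was gld-2, the catalytic subunit of a cytoplasmic poly(A) polymerase (35.9 to 20.2 FPKM, -0.80), and its partner gld-3 lay at -0.53. The second poly(A) polymerase, gld-4, lay at 2.98. The Y-box gene cey-2, the list's most abundant in lysates, lay at -0.49 (669 to 475 FPKM), and cey-3 at 2.67.

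Genes of mRNA turnover were split within the pathway. Of 42 ranked, 18 are called higher in the authors' deposited table, 42.9% beside 52.1% of all ranked genes. At least 2-fold higher were 12, and 7 were at least 2-fold lower. In nonsense-mediated decay, smg-6, an endonuclease gene (34.8 to 1404 FPKM, 5.30), smg-5 (2.52) and smg-7 (1.90) rose. The kinase and helicase genes smg-1 (-1.13) and smg-2 (-1.56) lay low. In decapping, patr-1 (4.55) and dcap-2 (2.71) rose, and dcap-1 lay at -0.53 and edc-3 at -0.80. The lowest was crn-3 at -1.61.

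Of 61 ranked Argonaute and small RNA genes of 68, 31 are called higher in the authors' deposited table, a share near the 52.1% of all ranked genes. wago-1 was highest, from 258 to 5685 FPKM (4.46), and the miRNA Argonaute genes alg-2 (3.36) and alg-1 (2.15) and the piRNA Argonaute gene prg-1 (1.63) rose. The primary siRNA Argonaute gene rde-1 was lowest, from 32.09 to 10.2 FPKM (-1.56), and csr-1 lay at -0.62 and the Dicer gene dcr-1 at -1.33.

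The oocyte list was higher still than the ranked median, with a pair of vitelline layer genes as exceptions. The 13 oocyte markers include the bait oma-1, with the limit given above, and oma-2, lin-41, puf-5 and puf-11, also named above. All 13 were ranked, and the median was 1.71. Of them 11 are called higher in the authors' deposited table, 84.6% beside 52.1% of all ranked genes. The exceptions were perm-2 (161 to 41.9 FPKM, -1.92) and perm-4 (116 to 34.1 FPKM, -1.74). Of 37 ranked eggshell and egg activation genes, 28 are called higher in the authors' deposited table, 75.7%. In this list perm-3 was highest (55.01 to 1573 FPKM, 4.81) and perm-2 lowest. Of the sqv genes of chondroitin synthesis, sqv-3 was highest at 3.87. Of 8 germ line markers, gld-1 (4.38), the Notch receptor gene glp-1 (3.01), the axis gene him-3 (2.79), mex-5 (1.49), syp-1 (0.57) and htp-3 (0.55) are called higher in the authors' deposited table, while the P granule genes pgl-1 (-0.10) and glh-1 (-0.24) are not.

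**Figure D3:**
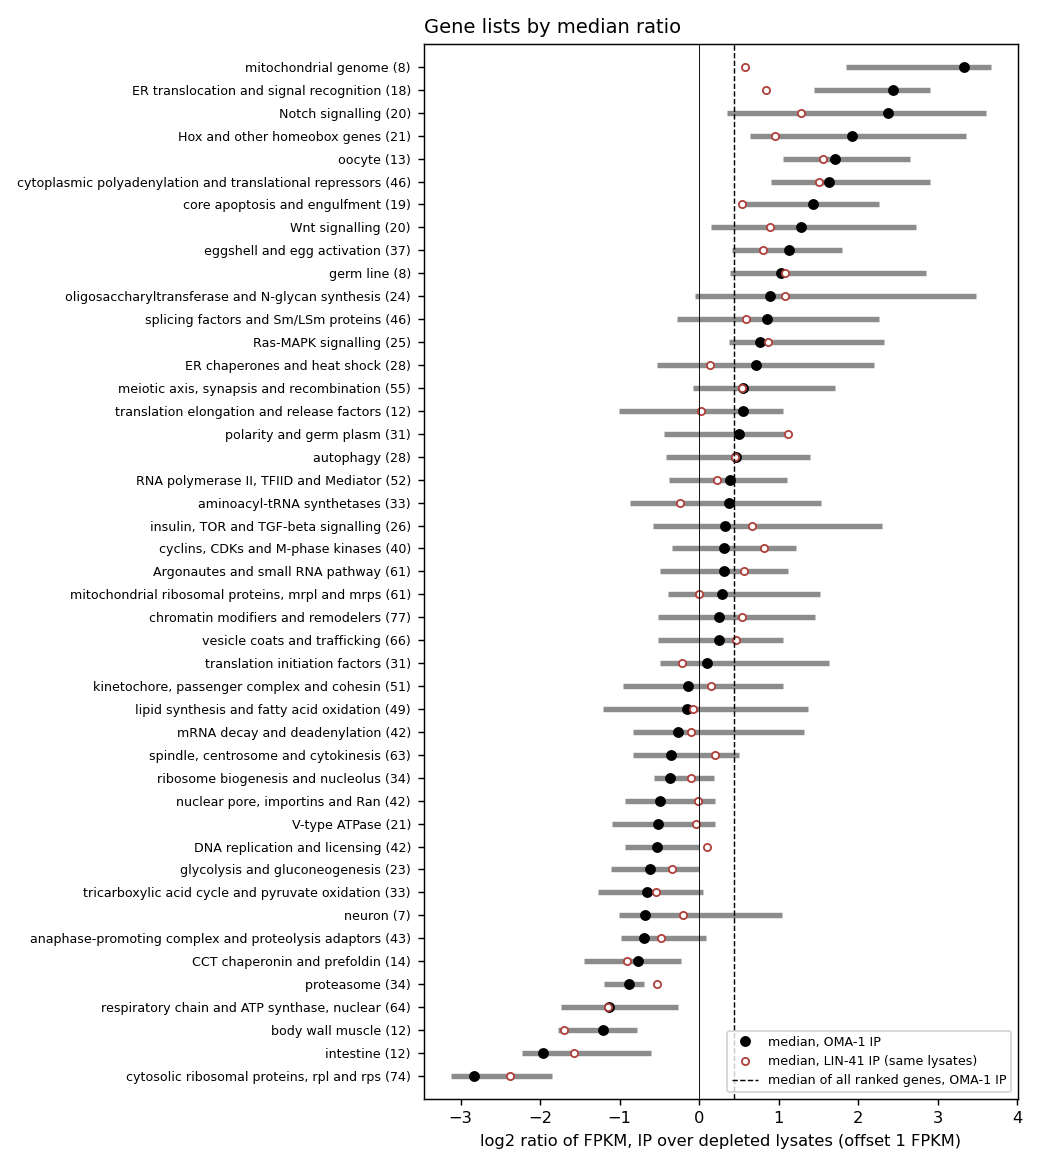
Each row is a gene list, with the number of ranked members in brackets. Black points are medians of the log2 ratio for OMA-1, grey bars their quartiles and open red points the medians for LIN-41 over the same lysates. The dashed line is the median of all ranked genes, 0.44. The mitochondrial genome and ER translocation genes lie at the top for OMA-1 and the cytosolic ribosomal protein genes at the bottom.

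Genes for entry into the endoplasmic reticulum (ER) rose nearly as a set. This machinery inserts secreted and membrane proteins into the ER. The list held 29 symbols, which gave 19 genes in the table, and 18 of those were ranked. Of these 17 are called higher in the authors' deposited table, 94.4% beside 52.1% of all ranked genes. At least 2-fold higher were 14, and the median of the 18 was 2.43, at the 81.6th percentile. The 5 ER membrane complex genes examined, which need not be the whole complex, all rose. The gene emc-3 went from 51.7 to 729 FPKM (3.79) and emc-1 from 47.7 to 649 FPKM (3.74). Next were emc-5 from 12.11 to 151 FPKM (3.54) and emc-6 from 25.9 to 239 FPKM (3.16). Closest to the ranked median of 0.44 was emc-2, from 23.4 to 39.9 FPKM (0.74). The translocon genes moved alike: sec-61, the channel, went from 198 to 1498 FPKM (2.91), Y38F2AR.9, its beta subunit, to 2.70, and emo-1, its gamma subunit, to 2.51. The signal recognition particle gene srpa-72 (1.40) rose too, in the authors' deposited table. One member was not higher, the translocon-associated gene trap-2, at -0.86 (33.2 to 17.9 FPKM), while trap-3 was at 2.89.

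In the N-glycan list, 14 of 24 ranked genes are called higher in the authors' deposited table, 58.3% beside 52.1% of all ranked genes. At least 2-fold higher were 11 genes, and 1 was at least 2-fold lower. Several encode subunits of the oligosaccharyltransferase, which attaches N-glycans at the translocon: dad-1 went from 77.5 to 4848 FPKM (5.95), ostb-1 from 96.2 to 2325 FPKM (4.58), ostd-1 from 60.4 to 1240 FPKM (4.34), ribo-1 from 134 to 1632 FPKM (3.60) and the catalytic stt-3 from 96.2 to 1049 FPKM (3.43). These are called higher in the authors' deposited table. The list had the widest interquartile range of the lists with at least 5 ranked members, -0.05 to 3.47, and a median of 0.89. Its lowest member was uggt-1, the glucosyltransferase that checks folding, at -1.90 (17.7 to 4.03 FPKM). The calreticulin gene crt-1, the most abundant in lysates, went from 394 to 1754 FPKM (2.15). Among 12 ranked gly genes of 17, glycosyltransferases of the Golgi, 8 were at least 2-fold higher and none lower, with gly-7 at 4.04.

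The chaperone and heat shock list had 28 ranked genes of 37 in the table. Of these 17 are called higher in the authors' deposited table, 60.7% beside 52.1% of all ranked genes. At least 2-fold higher were 13, and 4 were lower. ero-1 (4.74), hsf-1 (3.94), the BiP gene hsp-4 (3.77) and xbp-1 (2.65) rose. Its paralog hsp-3 lay at -1.06, and pdi-6 was lowest at -1.93. The cytosolic chaperonin and prefoldin genes lay low as a group, 14 ranked with a median of -0.76, and cct-5 was lowest at -1.94. Trafficking genes lay near the ranked median, 66 ranked at 0.24, with rab-6.2 highest (3.36) and vps-4 lowest (-1.75).

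**Figure D4:**
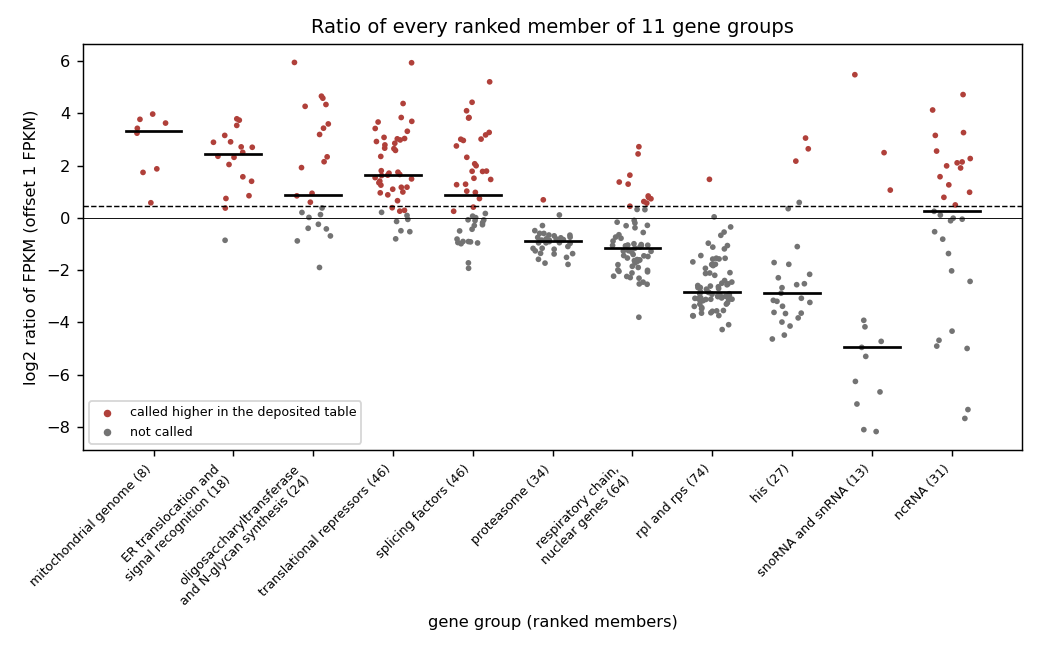
Each point is a ranked gene of one of 11 groups, with its log2 ratio on the y axis. Red points are called higher in the authors' deposited table, and black bars are medians. The dashed line is the median of all ranked genes, 0.44. Proteasome genes are tightly grouped near -0.88, and N-glycan genes are spread from -1.90 to 5.95.

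Respiratory chain subunits lay on opposite sides by genome. The mitochondrial genome encodes a few subunits and the nucleus the rest. Of 12 mitochondrial coding genes in the table, 8 were ranked and these had a median of 3.33, at the 90.3th percentile. Cytochrome oxidase subunit II, ctc-2, went from 321 to 5053 FPKM (3.97), nduo-5 from 125 to 1714 FPKM (3.77) and ctb-1 from 603 to 5712 FPKM (3.24). The lowest of the 8 was ctc-1, from 693 to 1035 FPKM (0.58). All 8 are called higher in the authors' deposited table, and the mitochondrial share of the summed FPKM went from 0.671% to 1.83%. Of 64 nuclear genes, all ranked, 39 were at least 2-fold lower and 5 at least 2-fold higher, and the median was -1.14. The cytochrome c gene cyc-2.1 was lowest, from 311 to 21.4 FPKM (-3.80). The 11 called higher in the authors' deposited table include the oxidase assembly genes cox-17 (2.72), cox-15 (2.45), cox-10 (0.73) and cox-11 (0.57), which are not subunits of the finished enzyme.

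The tricarboxylic acid cycle and glycolysis lists also had medians below 0. In the tricarboxylic acid cycle list, 13 of 33 ranked genes were at least 2-fold lower and 5 at least 2-fold higher, with a median of -0.66. The phosphoenolpyruvate carboxykinase gene pck-1 was lowest at -2.61, and pdhb-1, of pyruvate dehydrogenase, highest at 2.096. Glycolysis genes had a median of -0.62 over 23 genes, with glycogen synthase gsy-1 the highest at 2.304. The lipid list was evenly split: of 49 ranked genes 15 were at least 2-fold higher and 16 lower. Of the 49, 20 are called in the authors' deposited table, 40.8% beside 52.1% of all ranked genes. The median of the list was -0.15. In it, the desaturase genes fat-3 (-2.58), fat-6 (-2.33), fat-2 (-2.32) and fat-1 (-1.58) lay low, while fat-4 (0.63) and fat-5 (1.16) rose in the authors' deposited table. The glycerol phosphate acyltransferase gene acl-6 was the list's highest, from 42.3 to 619 FPKM (3.84). V-type ATPase genes had a median of -0.52 over 21 genes.

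Proteasome genes had the narrowest interquartile range of the lists with at least 5 ranked members. All 34 proteasome genes were ranked, none was at least 2-fold higher, 12 were at least 2-fold lower, and the quartiles were -1.19 and -0.70 around a median of -0.88. Only rpn-6.2 (0.69), which is scarce at 7.17 FPKM in lysates, is called higher in the authors' deposited table. The lowest was pbs-7, at -1.78. The cullin scaffold genes of ubiquitin ligases also lay low: cul-2 at -1.44, cul-3 at -1.15, cul-4 at -1.03, cul-1 at -0.85 and cul-5 at -0.79. Some substrate adaptor or selector genes did not: zif-1, the adaptor that directs CUL-2 to CCCH proteins of the germ line, went from 114 to 4344 FPKM (5.24), sel-10 from 74.1 to 1487 FPKM (4.31), and zer-1 was at 4.35 and prom-1 at 3.49. These are called higher in the authors' deposited table. In the list as a whole 10 of 43 ranked genes are called there, 23.3% beside 52.1% of all ranked genes.

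Of 40 ranked cyclin, CDK and M-phase kinase genes, 20 are called higher in the authors' deposited table, a share near the 52.1% of all ranked genes. The phosphatase gene cdc-25.3 was highest (41.5 to 1456 FPKM, 5.099), followed by plk-3 (160 to 3064 FPKM, 4.25) and fzr-1 (3.101). The B cyclin genes cyb-1 (1.68), cyb-2.1 (1.14) and cyb-3 (1.13) rose, while cdk-1, their kinase partner, lay at -1.05, plk-1 at -1.28 and the checkpoint kinase gene atl-1 at -1.70. Replication genes lay low as a group, 42 ranked with a median of -0.53, but the GINS gene psf-3 was at 4.53 (42.6 to 1004 FPKM) and rnr-1, for ribonucleotide reductase, at -1.49. The APC/C and spindle lists had medians of -0.69 and -0.36, and the kinetochore and cohesin list one of -0.14, from coh-1 (4.09) to the condensin gene mix-1 (-1.83). Meiotic genes lay near the ranked median at 0.55, and 35 of 55 are called higher in the authors' deposited table, 63.6%. The crossover and pairing genes him-5 (4.75), cosa-1 (4.04), him-8 (3.99), syp-3 (3.81) and zhp-3 (3.72) led, and the repair gene rad-50 was lowest at -1.88.

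Of the 4 signalling lists, Notch, Wnt and Ras-MAPK had medians above that of the ranked genes and the insulin, TOR and TGF-beta list one below it. Of 20 ranked Notch genes of 24, 15 are called higher in the authors' deposited table, 75% beside 52.1% of all ranked genes. At least 2-fold higher were 14, none was at least 2-fold lower, and the median was 2.38. By role, the receptors glp-1 (103.5 to 842 FPKM, 3.01) and lin-12 (2.06) rose, as did the ligand apx-1 (2.81), the transcription factor lag-1 (30.4 to 498 FPKM, 3.99), and the targets sygl-1 (6.60), ref-1 (5.46) and lst-1 (3.82). The gamma-secretase genes sel-12 (3.53), pen-2 (2.68), aph-1 (2.45) and hop-1 (1.32) rose and aph-2 lay at 0.29. The receptor-shedding protease gene sup-17 was lowest at -0.91.

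In Wnt signalling, 12 of 20 ranked genes of 30 are called higher in the authors' deposited table, beside 52.1% of all ranked genes. The ranked genes had a median of 1.29 and all 30 one of 0.22, with 11 at least 2-fold higher and 1 lower. The ligand mom-2 was highest (5.95), the receptors cam-1 (4.29), cfz-2 (3.104), mom-5 (1.42) and mig-1 (1.15) and the Dishevelled genes dsh-2 (3.41), dsh-1 (2.60) and mig-5 (1.496) rose, and the downstream genes pop-1 (0.15), sys-1 (-0.40) and wrm-1 (-0.49) did not pass. In the Ras-MAPK list, 19 of 25 ranked genes are called higher in the authors' deposited table, 76% beside 52.1% of all ranked genes. The adaptor sem-5 was highest (26.5 to 1033 FPKM, 5.23), let-60 was at 2.76, mpk-1 at 1.105 and ksr-1 lowest at -0.76. In the insulin, TOR and TGF-beta list, 13 of 26 ranked genes of 37 are called in the authors' deposited table, and the median was 0.32, from daf-14 (6.81 to 241 FPKM, 4.95) to lon-1 (-1.54). Over all 37 the median was -0.08. Of 19 ranked apoptosis genes of 29, 16 are called in the authors' deposited table, 84.2% beside 52.1% of all ranked genes. The nuclease crn-4 (3.97), the caspase ced-3 (70.3 to 1010 FPKM, 3.83) and ced-2 (3.78) were highest. Below them lay ced-4 at 1.59 and ced-9 at 0.51, and the nuclease nuc-1 was lowest at -2.43. The apoptosis median was 1.43 over the ranked genes and 0.68 over all 29.

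Transcription factor families lay high among the ranked, and near 0 over all members. Of 198 nuclear hormone receptor (nhr) genes, 49 were ranked, with a median of 1.498. Over all 198 the median was 0.00, 58 are called higher in the authors' deposited table, 43 were at least 2-fold higher and 7 at least 2-fold lower. The called and higher shares are near those of the whole table, 28.4% and 21.6%. Among the ranked, nhr-95 was highest, from 2.48 to 53.4 FPKM (3.97). Of 77 homeobox genes, 21 were ranked, and over all 77 the median was 0.12, with 22 at least 2-fold higher, 28.6%, and 2 lower. ceh-39 was highest, from 18.3 to 760 FPKM (5.30), and pal-1, the Caudal homolog that specifies posterior blastomeres, went from 77.1 to 798 FPKM (3.36). The Hox gene lin-39 was at 1.92.

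General nuclear machinery was mixed. The splicing list had 46 ranked genes. Of these 26 are called higher in the authors' deposited table, 56.5%, a share near the 52.1% of all ranked genes. The SR protein gene rsp-5 was highest, from 74.01 to 2769 FPKM (5.21), then rsp-2 (4.43) and the Sm gene snr-5 (92.6 to 1605 FPKM). The large U5 protein gene prp-8 lay at -1.72 and rnp-3 at -1.93. The mRNA export adaptors aly-1 (5.27), aly-3 (3.91) and aly-2 (3.87) lay far above the pore and transport list around them, 42 genes with a median of -0.50 and npp-21 lowest at -1.72. The Pol II list had a median of 0.39, with mdt-22 highest at 3.13 and ama-1, the largest polymerase subunit, lowest at -1.46. Of 77 chromatin genes, 38 are called higher in the authors' deposited table, near the share of all ranked genes, with the demethylase lsd-1 highest (13.6 to 597 FPKM, 5.35), and trr-1 lowest at -1.48.

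Most ranked muscle, intestinal and pharyngeal markers lay low, and those of neurons and the hypodermis were divided. Of 12 body wall muscle genes, all ranked, 8 were at least 2-fold lower, with a median of -1.204, from unc-54 (-0.17), unc-15 (-0.42), myo-3 (-0.90), tnt-2 (-1.02), lev-11 (-1.07), unc-22 (-1.34), unc-27 (-1.53), mup-2 (-1.68), mlc-2 (-2.05) and mlc-1 (-2.14) to pat-10 (-2.31). The actin gene act-4 was at 3.70 (242 to 3151 FPKM). Actin genes are alike in sequence, and reads may be split among them. Intestinal markers had a median of -1.96 over 12 ranked genes, with the yolk gene vit-6 from 1830 to 379 FPKM (-2.27), and 8 were at least 2-fold lower. vit-3, of a near-identical group, was at 1.19. Of 10 hypodermal markers 3 were ranked, wrt-10 (3.82), nhr-23 (2.26) and col-19 (-1.92). Of 14 neuronal markers 7 were ranked, from egl-21 (-1.76) to unc-64 (2.18). Pharyngeal myo-1 (-2.17) and myo-2 (-1.92) lay low. Sperm markers summed to 5.38 FPKM in lysate and 3.1 FPKM after the IP, over the 6 of 38 that are in the table. Because the column totals differ, marker sums are given with their shares of each column. Oocyte markers, the bait oma-1 among them, went from 3896 to 15230 FPKM (0.988% to 1.51%). Intestinal markers went from 5030 to 1742 FPKM (1.28% to 0.173%). The muscle sum went from 1826 to 3864 FPKM, of which act-4 made up 3151 FPKM in the IPs, but its share fell from 0.463% to 0.384%. The neuronal sum went from 149 to 234 FPKM, and its share fell from 0.0379% to 0.0232%. The hypodermal sum went from 749 to 304 FPKM (0.190% to 0.0302%) and the pharyngeal sum from 30.4 to 7.42 FPKM (0.00772% to 0.000737%). Of 9 gonad sheath and spermatheca markers, somatic cells next to the oocytes, 4 were ranked with a median of -0.72. The sum over all 9 was 176.4 FPKM in lysate and 176.2 FPKM after the IP (0.0447% to 0.0175%). The part of tissue composition in the ratios was not tested.

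Genes grouped by the authors' deposited comparison of spermatogenic with oogenic gonads of another study lay in the order of that comparison. Ranked coding genes were classed by a 2-fold limit together with an adjusted p below 0.05 in that comparison. The 1612 higher in oogenic gonads had a median of 1.13 and the 408 higher in spermatogenic gonads one of -0.22. The 4657 that did not pass both limits had one of 0.25. Within the last class ER translocation was at 2.51 over 17 genes, splicing at 0.98 over 45, the proteasome at -0.93 over 32, and the translational repressors at 1.18 over 19. The 24 oogenic repressor genes were at 2.62.

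Transcript and 3′ UTR lengths were taken from the Ensembl 115 annotation, the longest transcript standing for a gene. Long transcripts lay lower: the sixth of coding ranked genes with at least 3014 bases had a median of -0.21, and the other sixths medians of 0.40 to 0.69. The shortest sixth, up to 870 bases, was made of 69 ribosomal protein genes at -2.90 and 1042 others at 0.74. By 3′ UTR length, the shortest sixth, up to 93 bases, had a median of 0.27 and 22.5% of its genes at least 2-fold lower, beside 10.4% in the longest sixth. Within each of 3 classes of transcript length with equal gene numbers, the median increased with 3′ UTR length, from 0.43 to 0.85 and 1.05 in the shortest transcripts and from -0.17 to -0.05 and 0.19 in the longest. With genes chosen by a lysate level of at least 10 FPKM in place of baseMean, the longest-transcript sixth was still lowest at -0.18. The shortest sixth, then up to 779 bases, was next at 0.11, beside 0.61 for the shortest sixth of the ranked. Of its genes 28.7% were at least 2-fold lower, beside 21.8% in the longest sixth. The place of short transcripts thus depends on the filter. The shortest 3′ UTR sixth was at -0.08 beside 0.45 and 0.40 in the longest 2 sixths. These are medians across genes, which are not independent, and the quartiles of all bins overlap.

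**Figure D5:**
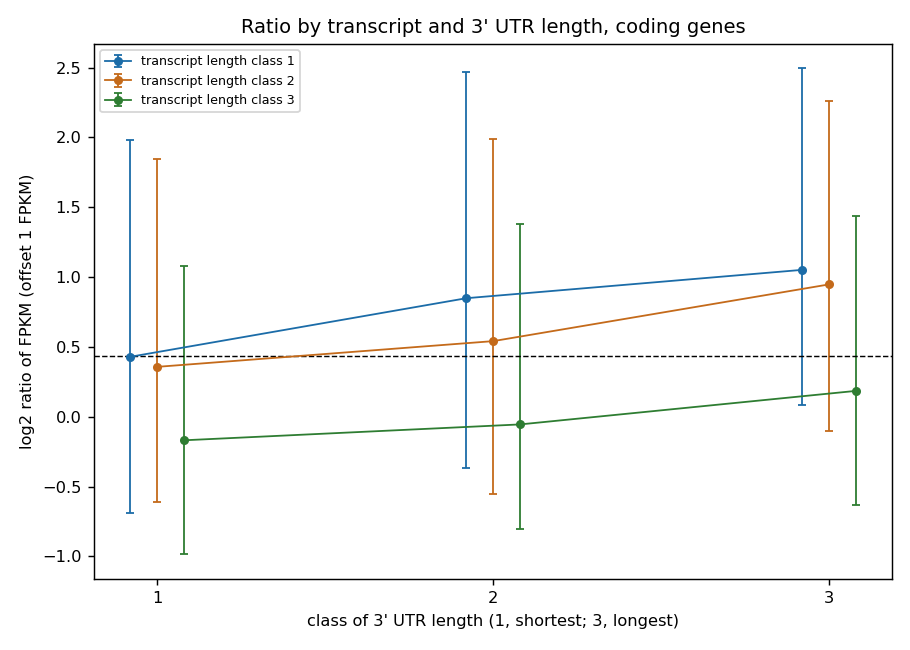
Points are medians and bars the quartiles of the log2 ratio over coding ranked genes, by 3 classes of 3′ UTR length (x axis) within 3 classes of transcript length (colours: class 1 up to 1260 bases, class 2 up to 2154, class 3 longer). The dashed line is the median of all ranked genes. Medians increase from left to right in each colour, and the quartiles overlap.

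Coding ranked genes of the X had a median of 0.40 and autosomal ones 0.44, but 21.8% of X genes were at least 2-fold lower beside 13.8% of autosomal genes. Among coding genes with a lysate level of at least 10 FPKM, the X median was -0.07 with 34.3% at least 2-fold lower, and the autosomal median 0.29 with 15.99% lower. Fewer X genes were ranked, 32.3% beside 34.8% to 59.3% of genes on single autosomes. Genes known only by a sequence name had a higher median, 0.69 over 2683 genes, than those with a class name, 0.25 over 3996. The ratio also fell with lysate level. Over 6 bins of coding ranked genes by lysate FPKM, the median went from 1.18 in the lowest to -0.16 in the highest. At least 2-fold lower were 8.42% and 28.99% of these bins. Median lysate FPKM was 5.39 for ranked nhr genes and 492 for rpl and rps genes. The mitochondrial genome genes, which lay high, had 272. The part of lysate level in the group differences was not tested.

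The LIN-41 IPs were set against the same pooled lysates in the deposited table, so the comparisons share their denominator and are given side by side with no test. The ranked genes had a LIN-41 median of 0.34 beside 0.44. With OMA-1 first and LIN-41 second, the medians were 3.33 and 0.57 for the mitochondrial genome and 2.43 and 0.84 for ER translocation. The 5 ER membrane complex genes examined were at 3.54 and 1.26 and Notch genes at 2.38 and 1.27. Some lists lay at like values in both, the repressors at 1.63 and 1.51, the nuclear respiratory genes at -1.14 and -1.15 and snoRNAs at -4.84 and -4.76. Replication genes lay at -0.53 and 0.10. The deposited table also gives log2 ratios of an earlier OMA-1 IP over lysate, and its legend does not say which lysate. The list medians of that IP on the authors' deposited log2 scale were 2.90 for ER translocation, 2.16 for the repressors, -0.89 for the proteasome and -2.70 for rpl and rps genes. On the same scale the present OMA-1 IPs gave 2.45, 1.63, -0.89 and -2.84.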

How the data were processed

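RNA-seq libraries were made with the TruSeq kit, per the labels' protocols. Per the submitters' processing notes, the build was WBcel235 and the tools were DESeq2 1.12.3, SAMtools 1.0, Trimmomatic 0.32 and STAR 2.4.2a. Not given in the sources used here are the counter, its strand setting and any poly(A) selection. Per the file headers, the authors deposited FPKM values pooled by group, a log2 ratio of IP over the pooled depleted lysates with an adjusted p-value, and baseMean, a mean read signal per gene. Values per library were not analysed here, and 4 columns of other studies' values were not used. Depth per library is therefore unknown, and baseMean ran from 1.00 to 180441 with a median of 44.4. A deposited p-value weighs the difference between groups against the spread between libraries, which may be technical. The 2 depleted lysates differ in genotype, so their spread may include that. The authors marked 69 genes for mapping quality, 13 of them ranked.

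From these, the log2 ratio with an offset of 1 FPKM was computed for 16031 genes with Python 3.11.15, pandas 2.3.3 and numpy 2.4.6. Known fold changes put into the lysate values without noise were returned by the ratio, which checks its arithmetic only. Gene lists (46), gene classes with at least 10 ranked genes (33) and biotypes (12) were summarised by counts, medians and quartiles. Of 1682 list symbols 1567 matched a gene in the table and 54 matched no known symbol. Symbols stored as dates, 5 in all, were restored by gene ID. Coordinates and lengths come from Ensembl 115 (WBcel235), which lacks 117 of the genes. Genes were named by rule: the 10 highest and lowest ratios, the 10 most abundant in lysates and in IPs, the highest, lowest and most abundant ranked member of each list, class and biotype, all members of lists of at most 12 genes, and oma-1, oma-2 and lin-41. Further genes were named after their values were seen. The comparison, members and lists were chosen with earlier results of these data known. Strain names in the labels increase by 1 within a genotype, so 1 strain per genotype was assumed. One gene of the lists is not reported here.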

Additional observations from a re-analysis of the deposited data

How the results depend on the processing

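For genes called higher with OMA-1, the number from the authors' deposited table, 4477, stayed within 1.5 times under a stricter adjusted p of 0.01, a deposited log2 ratio of at least 1, and a baseMean of at least 100, which gave 4106, 3585 and 3525. The number at least 2-fold lower, 998, was 1708 at a baseMean of 10 or more, 500 at 500 or more and 1865 with no filter. With equal column totals, 1337 ranked genes were at least 2-fold higher and 3093 lower, and centring on the ranked median gave 2133 and 1745. The higher share of both was 72.5% as reported, 30.2% with equal totals, 55.003% when centred and 79.7% at a baseMean of 500 or more. Without a filter the pseudogene median was -0.024, the nhr median -0.0013 and the fbxa median -0.13. Relative to the median of all genes kept, 7 of 42 lists and 9 of 33 classes changed side with no filter, 7 lists and 5 classes at a baseMean of 10 or more, and 4 lists and 10 classes at 500 or more. With equal totals the medians were -0.24 for pseudogenes, -0.21 for eggshell genes and -0.29 for germ line genes. The same setting scales every IP FPKM by a common factor before the offset is added, so scarce genes move less. It took single genes below 0: K10D3.10 (-0.22), WBGene00004677 (-0.83), ced-9 (-0.81), cox-10 (-0.47), cox-11 (-0.72), ctc-1 (-0.77), cyb-2.1 (-0.20), cyb-3 (-0.22), emc-2 (-0.55), fat-4 (-0.70), fat-5 (-0.16), hop-1 (-0.0014), htp-3 (-0.77), mig-1 (-0.035), mpk-1 (-0.23), rpn-6.2 (-0.50), syp-1 (-0.73) and vit-3 (-0.16). A filter on lysate FPKM of at least 10 was added after the data were seen and gave 2012 higher and 1058 lower. No paired analysis was possible because the table holds pooled values and no value per library, and for the same reason no library was left out in turn.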
